A study of Mus musculus with 24 samples.

Results

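The interferon regulatory factor (IRF) genes Irf1, Irf2, Irf3, Irf4, Irf5, Irf7, Irf8 and Irf9 were followed through RNA sequencing of mouse bone marrow-derived macrophages, primary macrophages grown from marrow. They were selected by symbol through GENCODE release M21 on GRCm38, as 8 of 52636 gene models, and all 8 passed the filter on low counts among 14435 genes. The 4 groups hold 6 libraries each: macrophages of mice with a Ninj1 knockout given Pam3 (KO_Pam3), wild-type C57BL/6 macrophages given Pam3 (WT_Pam3), Ninj1 knockout macrophages in media only (KO_media) and wild-type C57BL/6 macrophages in media only (WT_media). Ninj1 encodes a membrane protein of plasma membrane rupture during lytic cell death, and Pam3 is the usual short name of a synthetic lipopeptide sensed by TLR2. The sources used here do not give the dose and duration of Pam3, the strain background of the knockout or the deleted part of Ninj1. The labels state a sex for the wild-type mice only, male, and give NA for the knockout. A difference in sex, if there was one, cannot be told apart from genotype. Replicate numbers name libraries and pair nothing. Whether libraries represent different animals or cultures is not stated, so p-values reflect only the spread among these libraries, part or all of which may be technical.

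IRF proteins share a DNA-binding domain that recognises GAAA repeats in interferon-stimulated response elements (ISRE). IRF3, IRF5 and IRF7 rest in the cytoplasm until receptors and their kinases phosphorylate them, and IRF9 is the DNA-binding part of ISGF3, the complex that type I interferon receptors activate. IRF1 and IRF2 act on overlapping sites as activator and mainly repressor, and IRF4 and IRF8 are partner-dependent factors of myeloid and lymphoid cells, IRF8 being needed for the monocyte and macrophage lineage.

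RefSeq promoter windows on GRCm38.p6, each from 250 bases before to 50 bases after a start, were found for all 8 genes, 11 windows in all. Those of Irf1, Irf2, Irf8 and Irf7 are printed 5′ to 3′ because the first 3 are the members with a motif match, and Irf7 is shown as a member without one that differed between genotypes in media. Both strands were searched for the ISRE core GAAANNGAAA, the STAT-binding GAS motif TTCNNNGAA and the NF-kB consensus, and capitals mark matches.
Irf1 (chr11:53769764-53770063, plus strand): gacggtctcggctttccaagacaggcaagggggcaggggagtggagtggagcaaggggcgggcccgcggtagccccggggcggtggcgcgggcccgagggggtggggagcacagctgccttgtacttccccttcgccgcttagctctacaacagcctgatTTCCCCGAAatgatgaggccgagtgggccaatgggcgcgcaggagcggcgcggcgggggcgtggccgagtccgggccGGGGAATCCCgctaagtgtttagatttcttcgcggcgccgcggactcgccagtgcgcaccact
Irf2 (chr8:46739495-46739794, plus strand): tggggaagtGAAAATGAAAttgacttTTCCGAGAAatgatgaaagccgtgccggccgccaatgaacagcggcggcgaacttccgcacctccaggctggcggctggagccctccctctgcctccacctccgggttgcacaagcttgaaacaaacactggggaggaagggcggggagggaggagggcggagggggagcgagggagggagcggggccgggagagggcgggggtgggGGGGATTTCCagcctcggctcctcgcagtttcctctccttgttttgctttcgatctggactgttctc
Irf8 (chr8:120736108-120736407, plus strand): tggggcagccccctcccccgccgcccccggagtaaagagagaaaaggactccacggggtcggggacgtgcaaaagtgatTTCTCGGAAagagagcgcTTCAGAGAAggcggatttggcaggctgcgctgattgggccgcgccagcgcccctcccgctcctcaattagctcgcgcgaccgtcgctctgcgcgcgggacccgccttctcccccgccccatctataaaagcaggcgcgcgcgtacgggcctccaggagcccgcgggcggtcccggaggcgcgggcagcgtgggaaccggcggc
Irf7 (chr7:141266375-141266674, minus strand): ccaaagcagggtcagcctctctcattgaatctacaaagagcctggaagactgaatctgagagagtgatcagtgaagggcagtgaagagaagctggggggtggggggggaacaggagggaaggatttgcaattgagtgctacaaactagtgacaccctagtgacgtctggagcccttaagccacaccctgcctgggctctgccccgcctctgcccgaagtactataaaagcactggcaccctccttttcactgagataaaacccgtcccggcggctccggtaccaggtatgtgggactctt

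The Irf1 window held a GAS match at bases -90 to -82 from the start and an NF-kB match at -13 to -4. The Irf2 window held an ISRE core at -241 to -232, a GAS match at -224 to -216 and an NF-kB match at -17 to -8. The Irf8 window held 2 GAS matches, at -171 to -163 and at -153 to -145. Of 32851 windows, 3.44% held the ISRE core, 8.3% the GAS motif and 8.46% the NF-kB consensus. The windows of Irf3, Irf4, Irf5, Irf7 and Irf9, and the other windows of Irf1 and Irf8, held none of these letters, which says nothing of sites elsewhere. No motif overlapped another.

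Libraries held 31302011 to 40663152 counted reads. Ninj1 averaged 429 ± 25.7 CPM in KO_Pam3 and 810 ± 176 CPM in WT_Pam3, and 167 ± 9.68 CPM in KO_media and 307 ± 15.7 CPM in WT_media (SD, n = 6 each). Its reads fell in the knockout without disappearing, by 0.92 on the log2 scale after Pam3 (adjusted p = 4.05e-07) and by 0.88 in media (adjusted p = 7.33e-07; edgeR quasi-likelihood test, Benjamini-Hochberg adjustment over all tested genes, as throughout). Defining macrophage markers were high in every library, with summed levels of 32140 to 33760 CPM in KO_Pam3, 34150 to 39130 in WT_Pam3, 27460 to 28090 in KO_media and 26820 to 28540 in WT_media. In bulk RNA, fewer cells of a type and less RNA per cell cannot be told apart. Libraries KO_media 1 and WT_Pam3 5 stood apart for several members, and member calls between genotypes that change without them are given both ways. List calls between genotypes change without them as well, and are given both ways for some lists and comparisons only. Calls over all genes also change without them, and their counts are given in the last paragraph.

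Levels between genes were compared per length, as the deposited RPKM. In media, Irf8, Irf5 and Irf7 led. In WT_media the order was Irf8 (97.4 RPKM), Irf5 (88.1), Irf7 (55.1), Irf2 (31.1), Irf1 (22.6), Irf9 (18.5), Irf3 (16.4) and Irf4 (1.71), and the libraries of neighbours in that order did not overlap. In KO_media Irf7 and Irf8 both averaged 96.7 RPKM, but Irf7 exceeded Irf8 in 1 of 6 libraries, KO_media 1, where Irf7 reached 163 RPKM against a median of 84.8 RPKM over the group. By their means the other members followed there in the order of WT_media. The median of Irf5, at 88.5 RPKM, lay above that of Irf7, and the ranges of these 2 genes overlapped. The ranges of Irf8 and Irf5, Irf2 and Irf1, and Irf1 and Irf9 overlapped as well. After Pam3 the order was the same in both genotypes, with Irf7 at 279.8 RPKM in KO_Pam3 and 283.9 RPKM in WT_Pam3, Irf1 at 198.3 and 248.8, Irf5 at 66.8 and 74.6, Irf2 at 38.0 and 41.0, Irf9 at 34.4 and 34.0, Irf8 at 24.1 and 25.1, Irf3 at 17.2 and 18.1, and Irf4 at 0.306 and 0.281. In WT_Pam3 the ranges of Irf7 and Irf1, and of Irf8 and Irf3, overlapped.

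**Figure D1:**
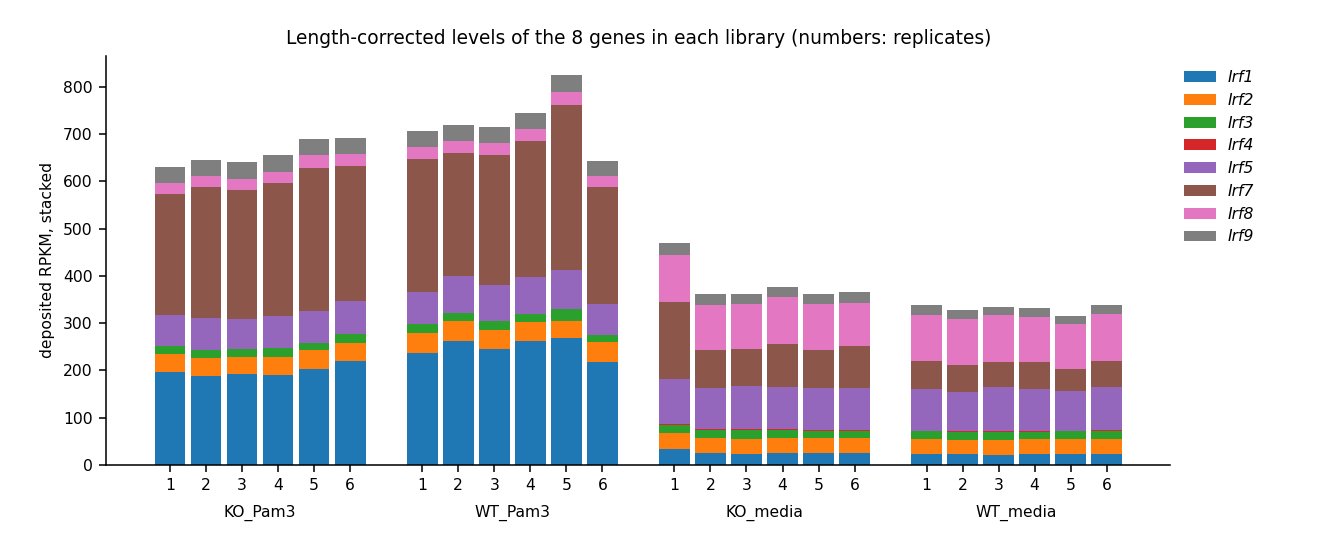
Deposited RPKM of the 8 genes, stacked, in each library (x axis: replicate numbers within the groups; y axis: RPKM; colours: genes). Irf7 and Irf1 fill most of each Pam3 bar and Irf8, Irf5 and Irf7 most of each media bar; the tallest media bar is KO_media 1, at 469 RPKM.

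The summed level of the 8 genes was 658.9 ± 26 RPKM in KO_Pam3 and 725.6 ± 58.9 RPKM in WT_Pam3, and 383 ± 42.8 RPKM in KO_media and 331 ± 8.43 RPKM in WT_media (SD, n = 6 each). Irf7 and Irf1 made up 42.5% and 30.1% of that sum in KO_Pam3, and 39.0% and 34.3% in WT_Pam3. In media Irf1 made up 6.78% in KO_media and 6.84% in WT_media, whereas Irf8 made up 25.4% in KO_media and 29.4% in WT_media. After Pam3 the share of Irf8 was 3.66% in KO_Pam3 and 3.47% in WT_Pam3.

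Pam3 against media was the larger contrast. In KO macrophages 4 members rose, 3 fell and 1 did not pass the test, where 40.2% of all tested genes rose and 44.8% fell. In WT macrophages 4 rose, 3 fell and 1 did not pass, where 40.6% of tested genes rose and 44.2% fell. The share of members called was near that of all genes in both genotypes. The median log2 fold change of the members was 0.10 in KO and 0.24 in WT, beside -0.07 and -0.05 over all tested genes. Scaling by library size alone lowered the median of all genes by 0.482 (log2) in KO and 0.521 in WT, so the smaller changes depend on the scaling. The values below are relative to TMM-scaled libraries. Where libraries of a member are said not to overlap, the share of all tested genes without overlap was not counted. Both contrasts and the comparisons of genotypes share their libraries.

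**Figure D2:**
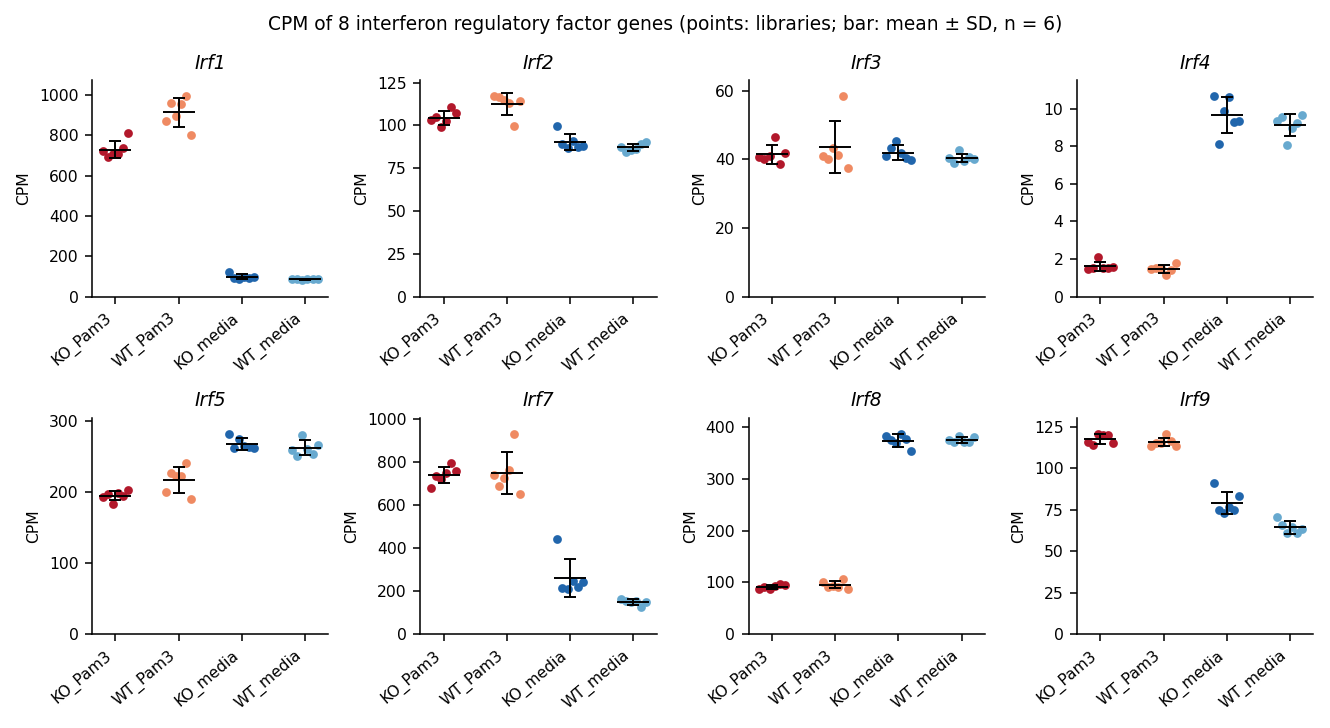
CPM of each gene (y axes, linear and starting at 0) in the 4 groups (x axis); points are libraries and bars the mean ± SD of 6. Irf1 and Irf7 are higher and Irf8 and Irf4 lower in every Pam3 library than in every media library of the same genotype, while Irf3 overlaps between treatments.

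IRF3, IRF5 and IRF7 are the members that sensing pathways activate. Irf7 (ENSMUSG00000025498, chr7:141262706-141266481), the amplifier of type I interferon synthesis, had 677.8, 738.5 and 794.9 CPM as lowest, median and highest value in KO_Pam3, and 649.2, 731.1 and 929.7 CPM in WT_Pam3. It had 210.2, 228.6 and 438.6 CPM in KO_media, and 124.1, 150.1 and 164.1 CPM in WT_media. Every Pam3 library lay above every media library of its genotype, and in media every KO library lay above every WT library, while after Pam3 the genotypes overlapped. Irf7 rose by a log2 fold change of 1.5 in KO macrophages (SE 0.13, adjusted p = 3e-11), and by 2.34 in WT macrophages (SE 0.134, adjusted p = 3.84e-15).

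Irf5 (ENSMUSG00000029771, chr6:29526625-29541871), a factor of inflammatory cytokine transcription, had 183.3, 195.5 and 203.3 CPM as lowest, median and highest value in KO_Pam3, and 190.5, 222.4 and 240.8 CPM in WT_Pam3. It had 261.6, 263.8 and 282.1 CPM in KO_media, and 250.9, 260.2 and 280.5 CPM in WT_media. It fell by 0.46 on the log2 scale with Pam3 in KO (SE 0.0453, adjusted p = 4.14e-10) and by 0.27 in WT (SE 0.0452, adjusted p = 4.61e-06), with no overlap between treatments in either genotype. The exons of Irf5 share 411 bases (14.1%) with Tnpo3 on the opposite strand, whose own counts rose by 0.74 in KO and 0.70 in WT. Without strand these reads cannot be told apart, and their part in the Irf5 values was not tested.

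Irf3 (ENSMUSG00000003184, chr7:44997648-45002848), the constitutive first responder of interferon induction, had 38.5, 40.8 and 46.4 CPM in KO_Pam3, and 37.3, 41.2 and 58.4 CPM in WT_Pam3. It had 39.9, 41.4 and 45.4 CPM in KO_media, and 39.0, 40.3 and 42.7 CPM in WT_media. The treatments overlapped in both genotypes, with log2 fold changes of -0.02 in KO (95% interval -0.165 to 0.128, adjusted p = 0.815) and 0.11 in WT (-0.0398 to 0.254, adjusted p = 0.163), the WT value being 0.01 without WT_Pam3 5 (adjusted p = 0.86). With library size alone these became -0.50 and -0.41, both past the test, so no direction is given for Irf3.

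Irf9 (ENSMUSG00000002325, chr14:55603571-55610030), the DNA-binding subunit of ISGF3, had 114.1, 118.0 and 120.8 CPM as lowest, median and highest value in KO_Pam3, and 113.6, 115.3 and 121.0 CPM in WT_Pam3. It had 73.3, 76.0 and 91.3 CPM in KO_media, and 60.7, 64.1 and 70.9 CPM in WT_media. The treatments did not overlap within either genotype, and in media the KO libraries all lay above the WT libraries. It rose by a log2 fold change of 0.57 in KO (SE 0.0464, adjusted p = 6.95e-12) and 0.85 in WT (SE 0.0467, adjusted p = 1.52e-15). With library size alone the KO change was 0.09 and did not pass (adjusted p = 0.0575), while the WT change was 0.33. Irf9 exons share 123 bases (2.28%) with Rnf31 on the same strand, which rose by 1.73 in KO and 1.96 in WT. Exon overlaps of the other members were 135 bases (3.4%) of Irf1 with Gm17334, 88 (2.56%) of Irf3 with Bcl2l12 and 45 (1.19%) of Irf7 with Phrf1, and Irf2, Irf4 and Irf8 shared none.

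Irf1 (ENSMUSG00000018899, chr11:53770014-53778374), a rapidly induced activator of interferon gamma and antigen presentation genes, was the member with the largest rise. It had 691.7, 715.6 and 810.5 CPM as lowest, median and highest value in KO_Pam3, and 802.6, 926.8 and 993.6 CPM in WT_Pam3. It had 88.3, 93.6 and 123.6 CPM in KO_media, and 81.7, 85.2 and 86.4 CPM in WT_media. After Pam3, 5 of the 6 KO libraries lay below every WT library and KO_Pam3 6 overlapped with WT_Pam3 6. Irf1 rose by a log2 fold change of 2.90 in KO (SE 0.0676, adjusted p = 4.57e-24) and 3.43 in WT (SE 0.0692, adjusted p = 1.68e-25).

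Irf2 (ENSMUSG00000031627, chr8:46739732-46847458), the counterpart of Irf1 with repressor activity, had 99.1, 103.9 and 111.0 CPM in KO_Pam3, and 99.96, 114.4 and 117.1 CPM in WT_Pam3. It had 86.8, 88.5 and 99.6 CPM in KO_media, and 84.5, 86.9 and 90.5 CPM in WT_media. The treatments overlapped in KO through KO_media 1 and did not overlap in WT. Its log2 fold changes were 0.21 in KO (SE 0.041, adjusted p = 3.17e-05) and 0.37 in WT (SE 0.0411, adjusted p = 4.37e-09), and with library size alone they reversed to -0.27 and -0.15.

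Irf8 (ENSMUSG00000041515, chr8:120736358-120756694) fell to 86.5, 91.3 and 96.3 CPM in KO_Pam3, against 353.5, 375.7 and 387.4 CPM in KO_media. It fell to 87.6, 92.2 and 105.6 CPM in WT_Pam3, against 370.7, 373.9 and 382.6 CPM in WT_media. The log2 fold changes were -2.03 in KO (SE 0.0422, adjusted p = 3.13e-25) and -1.98 in WT (SE 0.0421, adjusted p = 5.29e-25), with no overlap between treatments.

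Irf4 (ENSMUSG00000021356, chr13:30749226-30766976), a factor of alternative macrophage activation, was the lowest member and also fell. It had 1.45, 1.51 and 2.11 CPM in KO_Pam3 against 8.15, 9.63 and 10.7 CPM in KO_media, and 1.15, 1.49 and 1.77 CPM in WT_Pam3 against 8.05, 9.30 and 9.66 CPM in WT_media. These levels rest on 43 to 63 reads per library in KO_Pam3 and 34 to 54 in WT_Pam3. The log2 fold changes were -2.59 in KO (SE 0.0909, adjusted p = 5.34e-20) and -2.63 in WT (SE 0.0939, adjusted p = 7.76e-20).

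**Figure D3:**
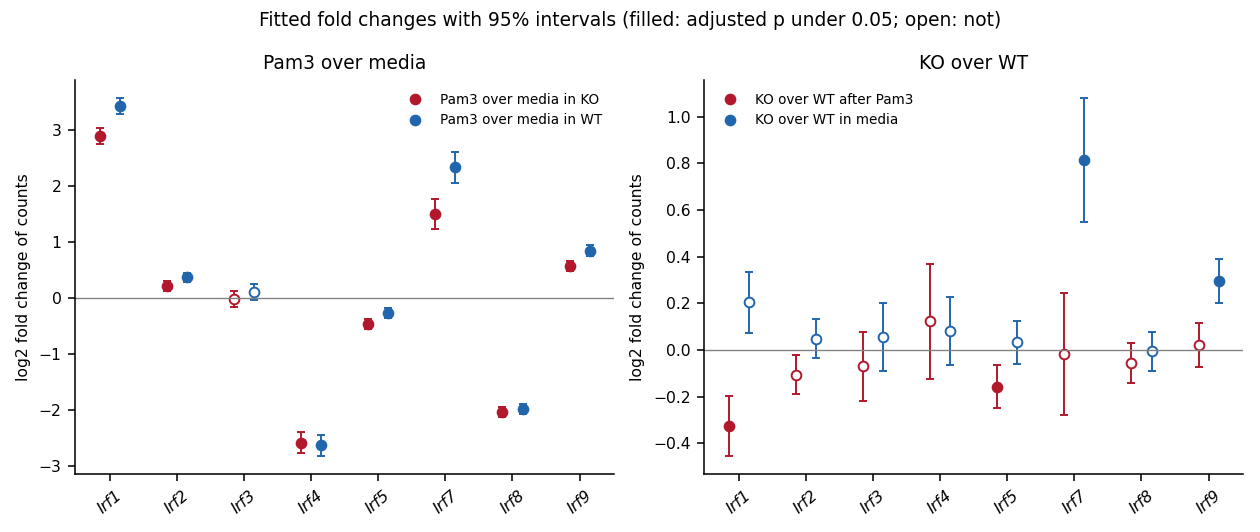
Fitted log2 fold changes (y axes) of the 8 genes (x axes) with 95% intervals, for Pam3 over media (left, KO and WT) and KO over WT (right, after Pam3 and in media); filled points passed the test. On the left the WT point lies above the KO point for every gene except Irf4. On the right Irf7 and Irf9 in media and Irf1 and Irf5 after Pam3 passed.

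Genotype changed fewer members. In media, Irf7 and Irf9 were higher in KO, none was lower (none at an unadjusted p under 0.05 or by DESeq2) and 6 did not pass the test, where 1.92% of all tested genes were higher and 1.12% lower. Irf7 averaged 260.6 ± 88.4 CPM in KO_media and 148.1 ± 13.3 CPM in WT_media (SD, n = 6 each), a log2 fold change of 0.82 (SE 0.129, adjusted p = 0.000484), and Irf9 averaged 79.1 ± 6.88 CPM in KO_media and 64.4 ± 3.77 CPM in WT_media, a change of 0.30 (SE 0.0465, adjusted p = 0.000444). Without KO_media 1 the changes were 0.60 for Irf7 (adjusted p = 1.68e-05) and 0.25 for Irf9 (adjusted p = 0.000458). All 6 KO libraries exceeded all 6 WT libraries for Irf1 as well, at 97.7 ± 12.9 CPM in KO_media and 84.8 ± 1.67 CPM in WT_media. How many of all tested genes had no overlap between these groups was not counted, so the lack of overlap only describes these members. The Irf1 change of 0.20 did not pass (95% interval 0.0732 to 0.335, adjusted p = 0.0854), and it was 0.13 without KO_media 1 (adjusted p = 0.212). Without WT_Pam3 5 it was 0.20 and passed (adjusted p = 0.0226), and without both it was 0.13 and did not (adjusted p = 0.0566). The other members had log2 fold changes between -0.01 for Irf8 (95% interval -0.0891 to 0.0767) and 0.08 for Irf4 (-0.0661 to 0.225).

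**Figure D4:**
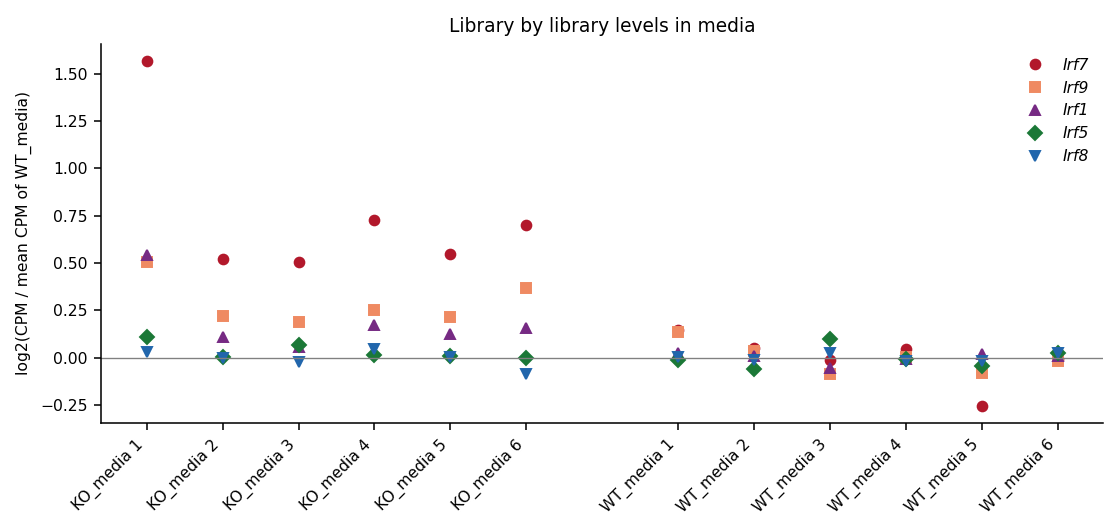
Levels of 5 genes in each media library as log2 of CPM over the WT_media mean (y axis; x axis: libraries, KO left of WT). Irf7 and Irf9 lie above every WT library in all 6 KO libraries, KO_media 1 is the highest for Irf7, Irf9 and Irf1, and Irf8 and Irf5 scatter around 0 in both genotypes.

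Markers listed for other cells differed in part between the same media groups. Stromal markers summed to 52.1 to 94.7 CPM in KO_media and 38.2 to 48.8 CPM in WT_media, with 6 of 8 higher and all 8 detected. Granulocyte markers summed to 86.3 to 100.6 CPM in KO_media and 65.2 to 75.7 CPM in WT_media, with 4 of 11 tested higher. Dendritic cell markers, a list that holds the ISGF3 target Bst2, summed to 154.1 to 237.6 CPM in KO_media and 124.6 to 143.1 CPM in WT_media, with 2 of 9 tested higher. Bst2 dominates that sum, with 203526 reads over all 24 libraries and each other dendritic cell marker at most 3849. The median log2 CPM of the tested markers overlapped, at -0.01 to 0.39 in KO_media and -0.27 to 0.17 in WT_media. B and plasma cell markers (222.5 to 249 CPM in KO_media, 232.5 to 255.6 in WT_media) and T and NK cell markers (35.7 to 40.4 in KO_media, 38.6 to 43.6 in WT_media) overlapped. Gzma had no read in any of the 24 libraries, Cd3d, Ncr1 and Trac none in 14 and Ly6g none in 16, while every macrophage, stromal and B cell marker was read in every library. The part of these markers in the Irf7 and Irf9 differences was not tested.

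After Pam3, Irf1 and Irf5 were lower in KO, none was higher (none at an unadjusted p under 0.05 or by DESeq2) and 6 did not pass, where 1.31% of all tested genes were higher and 2.75% lower. Irf1 averaged 729.4 ± 42.8 CPM in KO_Pam3 and 914 ± 70.8 CPM in WT_Pam3 (SD, n = 6 each), a log2 fold change of -0.33 (SE 0.0628, adjusted p = 0.00213), which was -0.30 without WT_Pam3 5 (adjusted p = 0.000758). Irf5 averaged 194.9 ± 6.66 CPM in KO_Pam3 and 217.3 ± 18.5 CPM in WT_Pam3, a change of -0.16 (SE 0.0454, adjusted p = 0.0474), with overlapping libraries. The Irf5 call was lost in 23 of 31 alternatives, with adjusted p over all 31 between 0.00644 and 0.323. Among these were the fits that left out any single media library, although media libraries are not part of this comparison. Their adjusted p was 0.0831 to 0.103, and 0.0838 without KO_media 1. Irf2 did not pass at -0.11 (adjusted p = 0.165), but passed at -0.14 without WT_Pam3 5 (adjusted p = 0.00609) and without both libraries (adjusted p = 0.00125). Irf7 and Irf9, the members higher in KO_media, had changes of -0.02 (95% interval -0.281 to 0.243) and 0.02 (-0.0739 to 0.116), and their genotypes overlapped. Stromal markers summed to 130.5 to 176.7 CPM in KO_Pam3 and 93.0 to 132 CPM in WT_Pam3, with 3 of 8 higher. Summed macrophage markers did not overlap, being lower in every KO_Pam3 library, and 3 of 10 were lower and 1 higher. Lyz2 dominates this sum, with 17336616 reads over all 24 libraries and each other macrophage marker at most 3054995. B and plasma cell markers summed to 42.2 to 47.3 CPM in KO_Pam3 and 56.1 to 70.3 CPM in WT_Pam3, with 2 of 8 tested lower, and T and NK cell markers to 9.95 to 12.4 CPM in KO_Pam3 and 13.03 to 15.65 CPM in WT_Pam3, with 1 of 3 tested lower, both without overlap. Few genes dominate these 2 sums as well. Over all 24 libraries Cd4 had 23436 reads and each other T and NK marker at most 634. Ighm had 114347, Cd22 21658 and each other B and plasma cell marker at most 2957. Granulocyte markers summed to 50.3 to 58.6 CPM in KO_Pam3 and 40.4 to 64.2 CPM in WT_Pam3, where 5 libraries lay at or below 44.5 CPM and WT_Pam3 5 was the highest, with 2 of 11 tested higher. Over all 24 libraries S100a9 had 23937 reads, S100a8 12836 and each other granulocyte marker at most 9783. Dendritic cell markers overlapped, at 341.6 to 397.6 CPM in KO_Pam3 and 333.1 to 570.6 CPM in WT_Pam3, with 1 of 9 tested higher. Their part in the Irf1 and Irf5 differences was not tested.

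The interaction compares the Pam3 response in KO with that in WT. It was negative and passed for Irf1 at -0.53 (SE 0.0894, adjusted p = 0.00904), Irf7 at -0.83 (SE 0.181, adjusted p = 0.0264) and Irf9 at -0.27 (SE 0.0656, adjusted p = 0.042), where 0.173% of tested genes passed higher and 0.589% lower. No member passed higher and 5 did not pass, with Irf8 at -0.05 (95% interval -0.168 to 0.0686) and Irf4 at 0.04 (-0.243 to 0.33). Without KO_media 1 the values were -0.43 for Irf1 (adjusted p = 0.0015), -0.60 for Irf7 (adjusted p = 0.00319) and -0.21 for Irf9 (adjusted p = 0.073), so the Irf9 call was lost. Irf9 passed without WT_Pam3 5 (-0.27, adjusted p = 0.00941) and without both (-0.23, adjusted p = 0.00578). Irf2 did not pass at -0.16 (adjusted p = 0.237), but passed without WT_Pam3 5 (-0.19, adjusted p = 0.0166) and without both (-0.16, adjusted p = 0.0207). For Irf7 and Irf9 the genotypes differed in media and not past the test after Pam3, whereas for Irf1 they differed past the test after Pam3.

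The genes around the IRFs were read from the same fit. The interferons were near absent: Ifna1, Ifna2, Ifna5, Ifnl2 and Ifnl3 had 0 reads in all 24 libraries, and Ifnb1, the type I interferon that IRF3 and IRF7 induce, had 159 reads over KO_Pam3 and 165 over WT_Pam3, and 3 over KO_media and 2 over WT_media. Ifnb1 rose with Pam3 by a fitted log2 fold change of 5.79 in KO and 6.42 in WT, which depend on the few media reads. Of 6 tested interferon and receptor genes, 4 rose and 2 fell in each genotype, Ifnar1, a type I interferon receptor subunit, by 1.47 in KO and 1.38 in WT, and none passed between genotypes, by edgeR or DESeq2, in media (1 at an unadjusted p under 0.05) or after Pam3 (0).

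Of 23 tested kinases and adaptors upstream of IRFs, 14 rose and 7 fell in KO and 15 rose and 8 fell in WT. Tank and Ikbke, partners in the TBK1 kinase complex that phosphorylates IRF3, rose by 2.77 and 2.33 in KO and by 2.82 and 2.34 in WT, and Tmem173, which encodes STING, had a log2 fold change of -2.32 in KO. In media, Ddx58 (the RNA sensor RIG-I) at 0.57 (adjusted p = 0.00378) and Myd88 (the adaptor of TLR2) at 0.19 (adjusted p = 0.0114) were higher in KO. After Pam3 none passed by edgeR or DESeq2, and 1 had an unadjusted p under 0.05. Without WT_Pam3 5, 6 were higher in KO in media and 4 lower after Pam3, and without both libraries 6 were higher and 5 lower. Calls over all genes rose too, from 277 higher in media and 397 lower after Pam3 with all libraries. They were 658 and 826 without WT_Pam3 5, and 541 and 936 without both. Of 12 JAK-STAT genes, 10 rose and 2 fell with Pam3 in each genotype. In media 4 were higher in KO, among them Stat2, which encodes an ISGF3 subunit, at 0.54 (adjusted p = 0.00769). Of 17 partner factors and regulators, 8 rose and 6 fell in each genotype, with Batf, a partner of IRF4 and IRF8, up by 4.52 in KO and 4.64 in WT.

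All 20 tested ISGF3 targets, interferon-stimulated genes of the IRF9 complex, rose with Pam3 in both genotypes, with a median log2 fold change of 2.26 in KO and 2.99 in WT. In media 17 of the 20 were higher in KO and none lower, with a median of 0.65 beside -0.0021 over all tested genes. Ifit3, an antiviral effector, averaged 83.1 ± 42.2 CPM in KO_media and 42.5 ± 4.35 CPM in WT_media (SD, n = 6 each), a change of 0.97 (adjusted p = 0.00212), and Oasl2 averaged 226 ± 81 CPM in KO_media and 131 ± 12.8 CPM in WT_media, a change of 0.79 (adjusted p = 0.00057). The median log2 CPM of the list was 5.68 to 6.25 in KO_media 2 to 6 and 7.04 in KO_media 1, and 5.16 to 5.52 in WT_media. Without KO_media 1, 14 of 20 were higher and the median was 0.39. All 20 were higher without WT_Pam3 5, and 18 without both. After Pam3 none of the 20 passed by edgeR or DESeq2, and none had an unadjusted p under 0.05. Without both libraries 5 were lower in KO after Pam3 and 9 had an unadjusted p under 0.05, and without KO_media 1 none passed and 6 were lower at an unadjusted p under 0.05. In the interaction 5 passed, all negative, a count that was 13 without KO_media 1, 18 without WT_Pam3 5 and 19 without both. Negative calls over all genes rose as well, from 85 to 97 without KO_media 1, 442 without WT_Pam3 5 and 411 without both.

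Of 16 IRF1 targets, 15 rose and none fell with Pam3 in KO and 16 rose in WT. After Pam3, Il15, a cytokine of NK and T cells, at -0.33 (adjusted p = 0.00215), the chemokine Cxcl9 at -0.40 (adjusted p = 0.0165) and Ciita, the MHC class II transactivator, at -0.35 (adjusted p = 0.0445) were lower in KO and none was higher. Il15 averaged 116 ± 8 CPM in KO_Pam3 and 146 ± 10.7 CPM in WT_Pam3 (SD, n = 6 each). In media Tap1 at 0.45, Gbp2 at 0.49 and Gbp5 at 0.48 were higher in KO. Without KO_media 1, 2 of 16 were lower after Pam3 and 2 higher in media, without WT_Pam3 5 the counts were 3 and 8, and without both they were 7 and 7. Over all genes these counts were 323 and 220 without KO_media 1, 826 and 658 without WT_Pam3 5, and 936 and 541 without both.

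All 7 IRF5 targets rose with Pam3 in each genotype, Tnf by 9.27 in KO and 9.45 in WT. After Pam3 Il12a was lower in KO, at -0.27 (adjusted p = 0.0482), and the other 6 did not pass. Without KO_media 1 none of the 7 was lower and 1 was higher, and without both libraries 2 were lower and 1 higher. Of 10 tested IRF4 and alternative activation genes, 6 rose and 4 fell in KO and 6 rose and 3 fell in WT, with Mrc1, the mannose receptor, at -2.13 in KO and -1.96 in WT. Between genotypes, 2 of the 10 were higher and 1 lower in KO after Pam3 (median log2 fold change -0.05). In media 1 was higher and 1 lower (median -0.08). Chil3, a chitinase-like protein of alternatively activated macrophages, was among those higher in KO, after Pam3 at 0.41 (adjusted p = 6.92e-05) and in media at 0.51 (adjusted p = 3.05e-06). Of 10 IRF8 targets and myeloid genes, 4 rose and 5 fell in KO and 4 rose and 3 fell in WT. Cybb, the NADPH oxidase subunit, rose by 2.35 in KO and 2.48 in WT, and Ly86, the partner of CD180, fell by 1.34 in KO and 1.05 in WT.

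**Figure D5:**
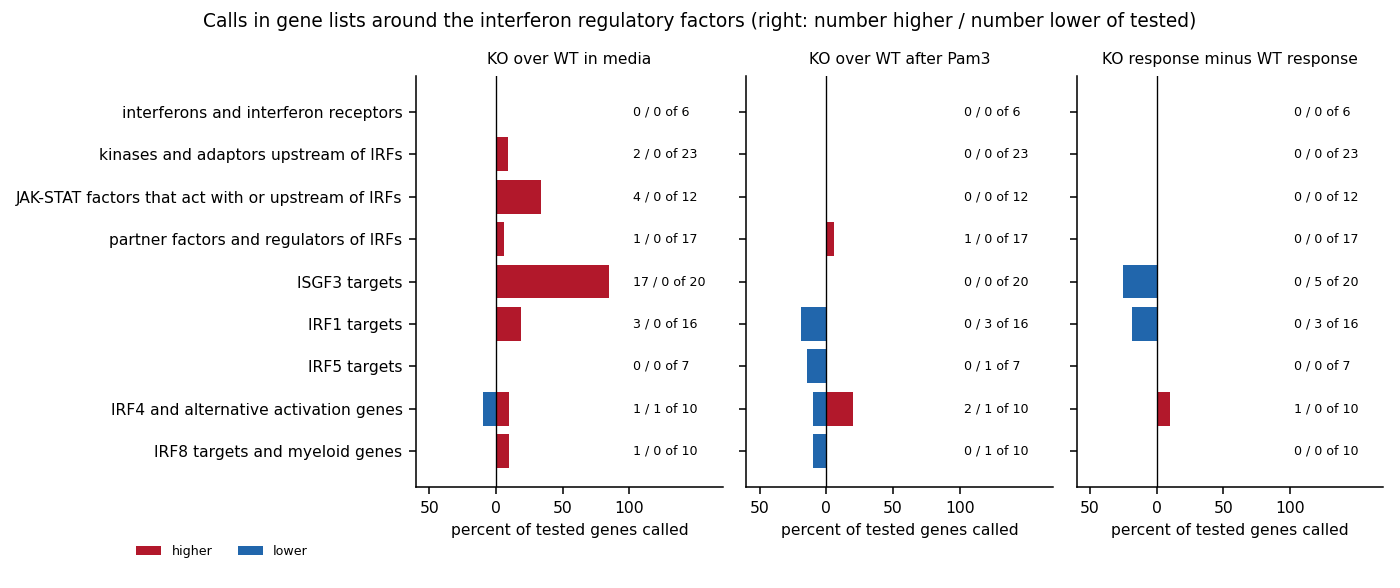
Percent of tested genes of each list (y axis) that passed the test as higher (red, to the right) or lower (blue, to the left; x axis in percent) in 3 comparisons, with counts printed at the right of each row as higher / lower of tested. Of the ISGF3 targets, 17 of 20 are higher in KO in media and 5 of 20 are negative in the interaction.

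The genes whose profiles were nearest to a member were taken over all 24 libraries by the root mean square difference of mean-centred log2 CPM. For Irf7 they were Rtp4 (0.0962), Dhx58 (0.103) and Oas1g (0.115), and for Irf1 Calhm6 (0.125), Psme2b (0.125) and Ccdc86 (0.133). For Irf8 they were 2310022A10Rik (0.0661) and Aagab (0.0746), and for Irf4 Ski (0.147), Tbc1d8 (0.153) and Ctdsp2 (0.154). Irf2, Irf3, Irf5 and Irf9 spanned less than 1 log2 unit between group means and were not matched.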

How the data were processed

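PolyA RNA was sequenced as single 50 bp reads from a TruSeq v2 kit, which does not mark strand, per the labels' protocols. The submitters' processing notes name GSNAP and GRCm38, without versions. Per the file headers, the deposited count is the authors' number of uniquely aligned reads per gene model, and the deposited RPKM is adjusted by a size factor. GENCODE release M21 gave symbols to 52489 of 52636 models, and the other 147 held 0.00387% of reads. No pair of libraries was a duplicate.

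Counts were tested in R 4.3.3 with edgeR 4.0.16 (TMM, filterByExpr, quasi-likelihood F-test, all 24 libraries in 1 fit, a mean per group, biological coefficient of variation 8.21%). Adjusted p are Benjamini-Hochberg over 14435 genes, threshold 0.05. SE is the size of the fold change over the square root of F. CPM use TMM-scaled library sizes. On simulated data for KO over WT in media (14435 genes), 72.6% of changes of 0.5 log2 and 94.9% of changes of 1 log2 were recovered, and 2.4% of calls were false. Apart from the genes changed in KO_media, each simulated gene had the same mean in every group. The simulation held no Pam3 effect and no library set apart, so these rates need not hold for the real libraries. DESeq2 1.42.0, limma 3.58.1 on log2(RPKM + 1), other scalings, filters and left-out libraries were alternatives.

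The members and gene lists were chosen with earlier results of these data known. Named were all members, Ninj1, Ifnb1, up to 4 genes per list with the smallest adjusted p in a comparison, and the 3 protein-coding genes most like each member spanning at least 1 log2 unit. A gene named in a comparison may be given in others, and some genes that this rule names are not reported here. Precision is limited by 6 libraries per group and, for Irf4 and Ifnb1, by few reads.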

Additional observations from a re-analysis of the deposited data

Results flagged for a closer look

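In 6 of 32 sets of 6 libraries, 1 library lay apart from the others by Dixon's criterion, which chance meets in about 1 in 20 sets. KO_media 1 was high for Irf7 at 438.6 CPM (others 210.2 to 244.9), Irf1 at 123.6 CPM (88.3 to 95.6) and Irf2 at 99.6 CPM (86.8 to 90.8). WT_Pam3 5 was low for Irf2 at 99.96 CPM (113.2 to 117.1) and high for Irf3 at 58.4 CPM (37.3 to 43.2). KO_Pam3 3 was high for Irf4 at 2.11 CPM (1.45 to 1.58).

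The response to Pam3 differed between genotypes by the interaction term for Irf1 (-0.53), Irf7 (-0.83) and Irf9 (-0.27, log2).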

How the results depend on the processing

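Of 1232 alternative values for the members, 1152 kept their direction and side of the threshold, 50 lost a call, 9 gained one, 3 reversed and 18 others moved. Scaling by library size alone reversed Irf2 with Pam3 (-0.27 in KO, -0.1532 in WT) and Irf3 in WT (-0.4149). It gave 2 members higher and 5 lower with Pam3 in KO, and 5 lower in WT. This scaling leaves out the TMM factors, which differ by treatment. After Pam3 the factors were 0.8397 to 0.8621 in KO and 0.8131 to 0.8455 in WT. Leaving them out raised the median log2 fold change of KO over WT after Pam3 by 0.0486. For KO over WT after Pam3, 1 member was changed (1 lower) with library size alone, without the filter on low counts, and with only the groups compared fitted, the last giving no interaction value. Leaving out each library gave 1 to 3 changed members (1 to 3 lower) for KO over WT after Pam3 and 1 to 4 (1 to 4 lower) for the interaction, the highest without WT_Pam3 5. The Irf9 interaction was lost in 23 of 30 alternatives (adjusted p 0.00569 to 0.185) and that of Irf7 in 3 of 30, at 0.0601 without WT_media 3, 0.0606 without WT_media 5 and 0.055 without KO_Pam3 3. Irf1 in media passed in 4 of 31 alternatives. Irf7 (0.60 to 0.87) and Irf9 (0.25 to 0.32) in media and Irf1 after Pam3 (-0.36 to -0.28) passed in all 31. The cause of these changes was not tested.

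Over all genes, 277 were higher and 161 lower for KO over WT in media, 189 and 397 after Pam3, and 25 and 85 in the interaction. DESeq2 gave 401 and 293, 281 and 603, and 82 and 258. Fitting only the groups compared gave 581 and 531 in media and 63 and 114 after Pam3. The unfiltered fit gave 183 and 183 after Pam3 and 22 and 41 in the interaction, and limma on RPKM gave 43 and 85 there. Leaving out each library gave 154 to 658 higher and 84 to 616 lower in media, 106 to 352 and 267 to 826 after Pam3, and 8 to 102 and 20 to 442 in the interaction, the highest each time without WT_Pam3 5. Without both KO_media 1 and WT_Pam3 5 these counts were 541 and 515, 389 and 936, and 91 and 411. Library size alone gave 3685 higher and 8935 lower for Pam3 in KO (29.2% of calls higher, against 47.3%), 3584 and 9055 in WT (28.4% against 47.9%), 412 and 220 for KO over WT after Pam3 (65.2% against 32.3%) and 34 and 54 in the interaction (38.6% against 22.7%). No paired analysis was possible because the labels carry no replicate numbers.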
